A study of Mus musculus with 18 samples.

Results

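Complement components and receptors are described here across 6 groups of mouse macrophages. The 7 genes were taken by symbol from the deposited count tables, where each has 1 row among 23052: C3, Cfb, Cfp, C3ar1, C5ar1, Serping1 and C4b. All 7 had enough counts to be tested in both tables, so none was lost to the filter on low counts. The 18 libraries came from wild type C57BL6/J bone marrow-derived macrophages, cultured for 7 days in 20% medium conditioned by L929 fibroblasts and 80% DMEM. An endotoxin-tolerant (ET) set held 12 libraries, 4 each of tolerant cells kept with glutamine (Gln), without glutamine, and without glutamine but with α-ketoglutarate (AKG), the metabolite that glutamine feeds into the tricarboxylic acid cycle. A stimulation set held 6 libraries, 2 each of untreated cells, cells given IL-4 for 6 h and cells given LPS for 6 h. The labels used here do not state the LPS dose or schedule that made cells tolerant, nor whether replicates came from separate animals or cultures. The p-values therefore measure the spread between these libraries, which may be technical.

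Complement is a cascade of plasma proteases that tags microbes and dying cells. C3 is its central protein: cleaved C3 coats a surface and, bound to a fragment of factor B (Cfb), forms the convertase of the alternative pathway, which properdin (Cfp) holds together. C4b encodes complement C4, which serves the classical and lectin pathways, and Serping1 encodes the C1 inhibitor, which blocks the proteases that start them. The small fragments released on the way, C3a and C5a, signal through C3ar1 and C5ar1. Macrophages make several of these proteins themselves, so local complement does not depend on the liver alone.

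The tolerant libraries held 28.3 M to 37.8 M counts each and the stimulation libraries 34.2 M to 39.8 M. Levels are in CPM, the usual counts scaled for depth, after TMM scaling within each table. Macrophage markers (10 genes, Adgre1 and Csf1r among them) summed to between 30300 and 47800 CPM in tolerant libraries, whereas lymphocyte markers (6 genes) summed to at most 0.654 CPM there. Stromal fibroblast markers (12 genes, such as Col1a1 and Dcn) were not absent: they summed to between 52.3 and 2250 CPM in the tolerant set and varied with both group and replicate number. In every tolerant group replicates 1 and 2 differed from replicates 3 and 4 for many genes, and what these numbers mark is not stated in the labels. Each tolerant comparison therefore has a second value, called blocked, from a fit with replicate number as a further factor. Values within replicates 1 and 2 and within replicates 3 and 4, with 2 libraries a group, are given as well.

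All 7 genes lie on the minus strand of GRCm38 (mm10, GENCODE vM21). C3 (chr17:57203970-57228136), Cfb (chr17:34856374-34862518) and C4b (chr17:34728380-34743882) share chromosome 17, where Cfb and C4b sit in the major histocompatibility complex. Cfp is X-linked (chrX:20925454-20931555), and the receptor genes are C3ar1 (chr6:122847138-122856161) and C5ar1 (chr7:16246743-16259540). Serping1 is at chr2:84765387-84775444. In the annotation Cfb overlaps Gm20547 on the same strand, and C4b has a near-identical neighbour, C4a. Neither Gm20547 nor C4a is among the counted symbols. C3 and Cfb also overlap counted microRNA genes on the same strand, Mir6978 and Mir6972. Levels of Cfb and C4b are therefore less certain, and how reads in the microRNA overlaps were assigned is not stated.

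The promoters of C3 and C5ar1 are shown because, of the 4 members with an entry in the RefSeq promoter table (GRCm38.p6), C3 had the smallest adjusted p with LPS and C5ar1 the smallest with IL-4. Each line holds the 250 bases before the RefSeq start, 5′ to 3′ on the gene's strand, at chr17:57228137-57228386 for C3 and chr7:16259339-16259588 for C5ar1. For C5ar1 the RefSeq start lies inside the GENCODE gene given above. Most of its window, with the marked match, therefore falls within that gene. Capitals mark matches to TTNNGNAA, a short form of the site of C/EBP, a family of myeloid and acute-phase transcription factors.
C3: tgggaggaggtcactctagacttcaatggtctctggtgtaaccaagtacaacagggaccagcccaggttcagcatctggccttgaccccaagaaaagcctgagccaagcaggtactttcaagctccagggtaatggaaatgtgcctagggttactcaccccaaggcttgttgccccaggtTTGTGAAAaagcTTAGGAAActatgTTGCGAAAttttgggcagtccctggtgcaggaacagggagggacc
C5ar1: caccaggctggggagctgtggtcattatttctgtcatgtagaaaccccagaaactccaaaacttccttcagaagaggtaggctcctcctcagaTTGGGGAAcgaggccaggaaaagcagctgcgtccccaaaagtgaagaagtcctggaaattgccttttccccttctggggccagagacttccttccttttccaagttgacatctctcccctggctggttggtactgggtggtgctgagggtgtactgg
C3 held 3 such matches close together, TTGTGAAA, TTAGGAAA and TTGCGAAA, starting 70, 58 and 45 bases before the start. Among 32851 promoter windows of the same length 36.8% held at least 1 match on either strand and 2.61% held 3 or more. C5ar1 held a single match, TTGGGGAA, 157 bases before its start, and the Cfp and C3ar1 windows held none. None of the 4 windows matched GAGGAA (the PU.1 core, in 23.3% of windows), TTCNNNNGAA (STAT6, in 5.85%) or the NF-kappaB site (by name, in 7.25%). These matches describe letters in a window and were not measured as binding.

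Divided by exon length, so that genes can be compared, C3ar1 had the highest level of the 7 in each of the 6 groups, from 414 CPM per kb in tolerant cells without glutamine to 664 CPM per kb with LPS. In tolerant cells with glutamine it stood at 428 ± 24.9 CPM per kb (SD, n = 4), beside Cfp at 405 ± 19.9, C5ar1 at 236 ± 9.24 and C3 at 160 ± 26.4. C3ar1 and Cfp overlapped there (393 to 451 against 377 to 425 CPM per kb). The other 3 genes were far lower in that group: Serping1 at 1.96 ± 1.38, C4b at 1.40 ± 1.41 and Cfb at 0.835 ± 0.254 CPM per kb, with ranges that overlapped. These are RNA levels of the whole sample, in which fewer cells of a type and less RNA per cell cannot be told apart.

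The stimulation set asked how untreated macrophages respond to an alternative (IL-4) and a classical (LPS) activator, with 2 libraries a group. LPS raised the 3 members that belong to the alternative pathway, C3, Cfb and Cfp, and neither receptor gene, C1 inhibitor nor C4 passed the test. Cfd, another gene of that pathway, is not among the 7 and had 0 counts in every library of this set. edgeR's quasi-likelihood test called 3 of 7 members higher and 0 lower, beside 22.8% of all tested genes higher, 29.4% lower and 52.3% in either direction. IL-4 lowered C5ar1 and called no other member, 1 of 7, against 20.1% of all genes (9.64% higher, 10.5% lower). The members' median log2 fold change was 0.48 with LPS (-0.095 over all genes) and 0.03 with IL-4 (-0.039 over all genes). Both comparisons use the same untreated libraries. Under RLE size factors in place of TMM the median gene moved from -0.095 to 0.002 with LPS, so LPS differences of that size carry no direction.

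C3 stood at 382 and 316 CPM untreated, 381 and 441 CPM with IL-4, and 1100 and 986 CPM with LPS. Both LPS libraries lay above the other 4, at 2.99-fold the untreated level (log2 1.58, SE 0.14, adjusted p = 0.00042). With IL-4 it was 0.24 (95% interval -0.11 to 0.58, adjusted p = 0.32), and the values overlapped.

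Cfb, the protease of the alternative convertase, was close to silent without LPS. It had 4 and 3 counts untreated (0.0960 and 0.0704 CPM), 5 and 2 counts with IL-4 (0.130 and 0.0448 CPM), and 120 and 115 counts with LPS (4.18 and 4.02 CPM). From the summed counts, 235 against 7, the ratio of LPS to untreated was 49.3 (exact 95% interval 23.6 to 124, which covers counting error only), and the model gave a log2 difference of 5.57 (SE 0.35, adjusted p = 0.00013). For IL-4 the counts were 7 against 7, a ratio of 1.01 (0.304 to 3.39), an interval too wide to place IL-4 above or below untreated cells at this depth. Even after LPS, Cfb remained low per length at 1.45 CPM per kb, beside 203 for C3.

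Cfp, which stabilises the convertase, had 524 and 414 CPM untreated, 475 and 529 CPM with IL-4, and 759 and 637 CPM with LPS. The LPS libraries were above the rest by a smaller margin than for C3, at 1.49-fold the untreated level (log2 0.57, SE 0.16, adjusted p = 0.026). This call rests on single libraries: it was lost without untreated replicate 2 (0.41, adjusted p = 0.070) and without LPS replicate 1 (0.44, adjusted p = 0.14).

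Of the receptors C3ar1 and C5ar1, C5ar1 passed with IL-4. C5ar1, a receptor of C5a, had 964 and 864 CPM untreated and 986 and 962 CPM with LPS, but 430 and 513 CPM with IL-4. Its IL-4 libraries lay below all others, at 0.516 times the untreated level (log2 -0.96, SE 0.12, adjusted p = 0.0048). With LPS the difference was 0.09 (95% interval -0.21 to 0.39, adjusted p = 0.57). C3ar1, the receptor of C3a, had 2230 and 2620 CPM untreated, 2170 and 2300 CPM with IL-4, and 2720 and 3000 CPM with LPS. Neither difference passed: -0.12 with IL-4 (adjusted p = 0.58) and 0.24 with LPS (95% interval -0.07 to 0.54, adjusted p = 0.16; DESeq2 gave 0.34, adjusted p = 0.028).

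Serping1 and C4b were low throughout this set. Serping1 had 1.54 and 1.41 CPM untreated, 1.14 and 1.05 CPM with IL-4, and 1.57 and 1.36 CPM with LPS. The IL-4 values were the lowest, at a log2 difference of -0.42 (95% interval -0.87 to 0.03, adjusted p = 0.17), and stromal markers were lowest there too, at 98.0 and 108 CPM against 138 and 144 CPM untreated. C4b had 1.10 and 0.751 CPM untreated, 0.934 and 1.14 CPM with IL-4, and 1.36 and 1.22 CPM with LPS, a log2 difference of 0.48 with LPS (adjusted p = 0.18). Without untreated replicate 1 that difference was 0.88 (adjusted p = 0.043), so 1 library decided this call.

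Set directly against LPS, IL-4 left 4 of 7 members lower and 0 higher, beside 53.1% of all genes called (23.4% lower, 29.7% higher). These were C3 (-1.34, SE 0.14, adjusted p = 0.00068), Cfb (-5.54, SE 0.35, adjusted p = 0.00011), C5ar1 (-1.05, SE 0.12, adjusted p = 0.0010) and Cfp (-0.48, SE 0.16, adjusted p = 0.047). The Cfp call was lost when any 1 of the 4 libraries was left out (adjusted p from 0.063 to 0.23). C3ar1 was just outside the threshold at -0.36 (SE 0.12, adjusted p = 0.054; 0.027 with RLE size factors). The members' median was -0.48, and 0.097 over all genes.

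**Figure D1:**
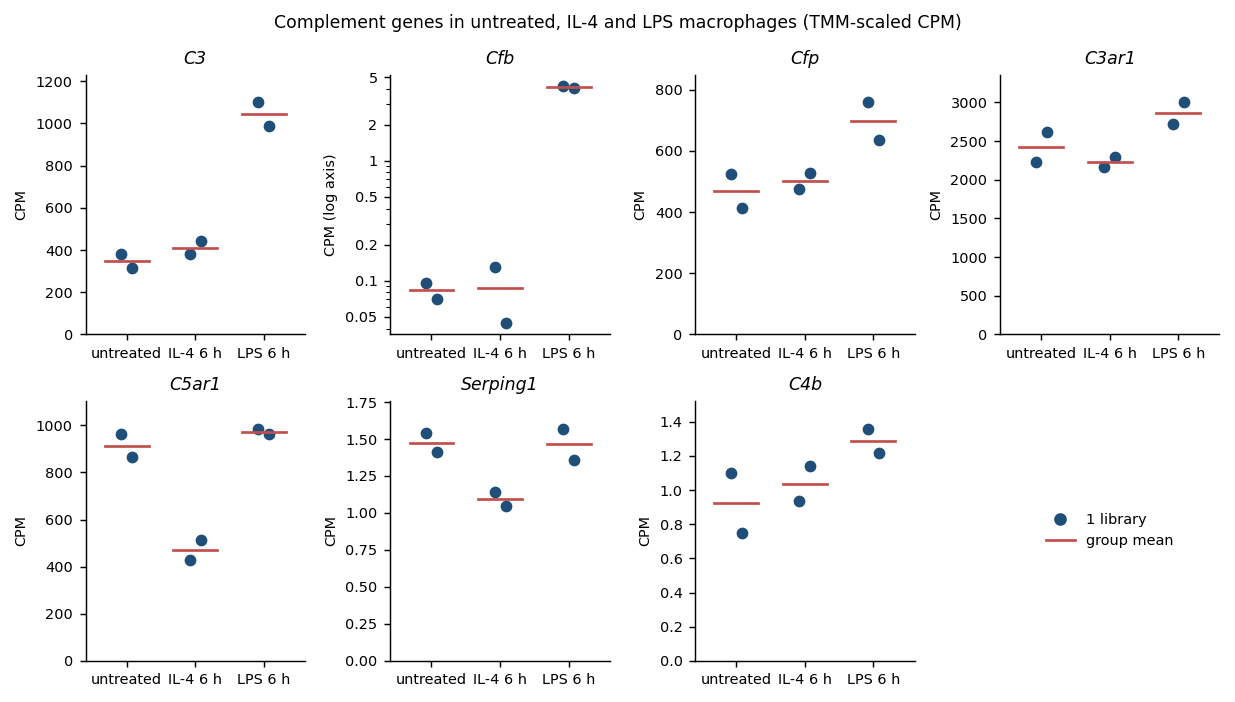
TMM-scaled CPM (y axis, log scale for Cfb) of the 7 complement genes in untreated, IL-4 and LPS libraries (x axis). Points are single libraries (2 per group) and lines are group means: C3, Cfb and Cfp are highest with LPS, and C5ar1 is lowest with IL-4 at 430 and 513 CPM. C3ar1 and C4b are also highest in both LPS libraries, though neither was called against untreated cells.

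The tolerant set asked what glutamine withdrawal does to tolerant cells and what AKG does in its absence. Without the block, edgeR's quasi-likelihood test called none of the 7 members in any of the 3 comparisons, beside 4.78% of all genes without against with glutamine, 1.54% with AKG against without glutamine, and 0% with AKG against glutamine. At an unadjusted p under 0.05 there were 3, 2 and 2 members, beside 18, 13.1 and 7.36% of all genes. DESeq2 called 3, 1 and 1 members (10.1, 5.46 and 1.86% of genes), and limma-voom 0, 0 and 0 (3.73, 1.67 and 0%). With the replicate block the members called numbered 4 (1 higher and 3 lower without glutamine), 4 (all higher with AKG) and 2 (1 higher and 1 lower with AKG than with glutamine). Over all genes the block called 21.8% (8.73% higher, 13.1% lower), 15.6% (8.5% higher, 7.07% lower) and 7.08% (1.65% higher, 5.43% lower). Group values did not overlap in 2 members in each comparison, against 12.4, 9.1 and 5.57% of all genes. The 3 comparisons share their groups, so their values are not independent of each other.

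C3 was higher in every library without glutamine than in any with it, though the nearest values almost touched. It had 661, 767, 958 and 910 CPM with glutamine (replicates 1 to 4), 1220, 1250, 1150 and 963 CPM without, and 1320, 1290, 1040 and 1040 CPM without glutamine but with AKG. The log2 difference without glutamine was 0.47 (SE 0.14, adjusted p = 0.084, blocked 0.044), 1.39-fold. Adding AKG gave a further 0.03 (95% interval -0.27 to 0.34, adjusted p = 0.96), and AKG libraries stood 0.51 above those with glutamine (SE 0.14, adjusted p = 0.24, blocked 0.073). Without against with glutamine, C3 gave 0.79 in replicates 1 and 2 (adjusted p = 0.00016) and 0.20 in replicates 3 and 4 (adjusted p = 0.29).

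Whether effects differed between replicates 1 and 2 and replicates 3 and 4 was tested as an interaction. For AKG against glutamine it was called in 2 of 7 members, C3 (-0.72, SE 0.13, adjusted p = 0.035) and Cfp (-0.89, SE 0.17, adjusted p = 0.036), beside 1.54% of all genes. In the other 2 comparisons no member was called (2.47% of genes without against with glutamine, 0.04% with AKG against without), with C3 at -0.61 (adjusted p = 0.051) and Cfp at -0.74 (adjusted p = 0.057) in the first.

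The level of Cfp without glutamine differed with replicate number. Its values were 655, 708, 738 and 708 CPM with glutamine, 765, 837, 577 and 440 CPM without, and 999, 1070, 565 and 621 CPM with AKG. In replicates 1 and 2 the order ran from glutamine through no glutamine to AKG, with 0.23 for withdrawal (adjusted p = 0.036), 0.37 for AKG against no glutamine (adjusted p = 0.0061) and 0.60 for AKG against glutamine (adjusted p = 0.0011). Replicates 3 and 4 were lower both without glutamine and with AKG than with glutamine, where AKG stood at -0.26 (adjusted p = 0.47). Over all 4 the differences were -0.10 without against with glutamine and 0.31 with AKG against without (adjusted p = 0.89 and 0.67).

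Cfb had 2.21, 3.41, 1.99 and 1.83 CPM with glutamine, 3.71, 3.95, 3.72 and 2.90 CPM without, and 4.47, 5.86, 2.0 and 2.0 CPM with AKG. The groups overlapped, and no comparison over the 4 replicates passed: 0.60 without against with glutamine (SE 0.35, adjusted p = 0.43, blocked 0.078) and 0.00 with AKG against without (95% interval -0.76 to 0.76). Within replicates 1 and 2 AKG stood 0.87 above glutamine (adjusted p = 0.033) and within 3 and 4 it stood 0.10 above (adjusted p = 0.92). Without against with glutamine these values were 0.44 (adjusted p = 0.18) and 0.82 (adjusted p = 0.031). With AKG, replicates 1 and 2 stood 2.58 times above replicates 3 and 4, against 1.47 with glutamine. For context, tolerant libraries held from 1.83 to 5.86 CPM of Cfb, LPS at 6 h 4.02 to 4.18 CPM and untreated cells at most 0.0960 CPM. These come from separately scaled tables and were not tested against each other.

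C5ar1 was the one member that lay lower in all 4 libraries without glutamine than in all 4 with it and in all 4 with AKG. It had 621, 633, 593 and 582 CPM with glutamine, 536, 526, 499 and 414 CPM without, and 603, 634, 552 and 561 CPM with AKG. The change without glutamine was small, -0.30 (SE 0.09, adjusted p = 0.089, blocked 0.0073), with -0.24 in replicates 1 and 2 (adjusted p = 0.0095) and -0.34 in 3 and 4 (adjusted p = 0.094). AKG against no glutamine gave 0.25 (SE 0.09, adjusted p = 0.23, blocked 0.022), with 0.22 and 0.29 (adjusted p = 0.017 and 0.20). Against glutamine, AKG differed by -0.05 (95% interval -0.24 to 0.15, adjusted p = 1.0).

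C3ar1 was highest with AKG. Its values were 1860, 1690, 1940 and 1880 CPM with glutamine, 1800, 1580, 1840 and 1910 CPM without, and 2050, 2020, 2300 and 2310 CPM with AKG. All 4 AKG libraries exceeded the other 8. The log2 difference was 0.28 against no glutamine (SE 0.09, adjusted p = 0.17, blocked 0.0084) and 0.24 against glutamine (SE 0.09, adjusted p = 0.50, blocked 0.031). It was 0.26 and 0.30 within replicates 1 and 2 and within 3 and 4, against no glutamine (adjusted p = 0.037 and 0.088). Withdrawal alone gave -0.05 (95% interval -0.24 to 0.15, adjusted p = 0.87).

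**Figure D2:**
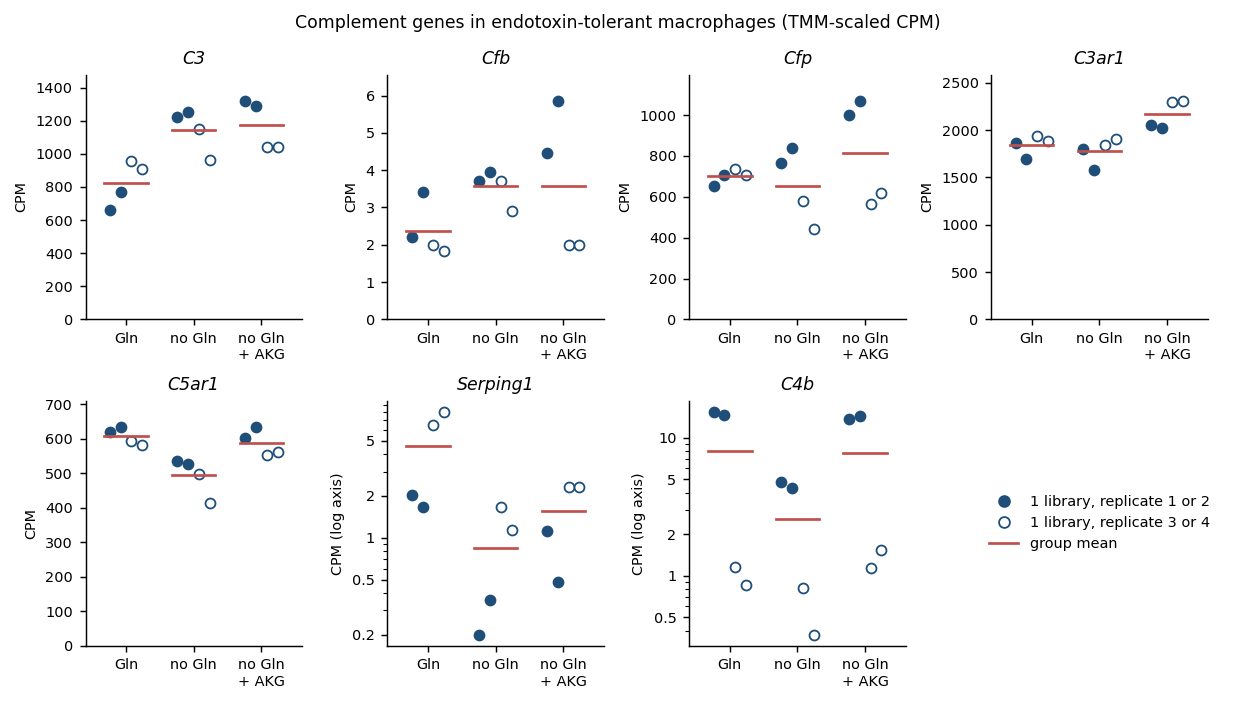
TMM-scaled CPM (y axis, log scale for Serping1 and C4b) of the 7 genes in tolerant cells with glutamine, without it, and without it but with AKG (x axis). Points are libraries, filled for replicates 1 and 2 and open for 3 and 4, and lines are group means: C4b separates by replicate number, and C3ar1 is highest in the 4 AKG libraries at 2020 to 2310 CPM.

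C4b differed more between replicates than between groups. Replicates 1 and 2 had 15.3 and 14.6 CPM with glutamine, 4.75 and 4.28 CPM without, and 13.7 and 14.4 CPM with AKG. Replicates 3 and 4 had 1.16 and 0.851, 0.817 and 0.376, and 1.14 and 1.53 CPM in the same order. The ratio of the first 2 to the last 2 was 14.9, 7.57 and 10.5 in the 3 groups. Unblocked, no difference passed (-1.64, SE 1.16, adjusted p = 0.54 without against with glutamine). With the replicate block C4b was 1.45 lower on the log2 scale without glutamine (SE 0.22, adjusted p = 0.0018) and 1.53 higher with AKG than without (SE 0.23, adjusted p = 0.0028). AKG and glutamine then differed by 0.08 (95% interval -0.37 to 0.53, adjusted p = 0.92). The fall was -1.73 in replicates 1 and 2 (adjusted p = 1.7e-05) and -0.71 in replicates 3 and 4 (adjusted p = 0.32), and the AKG difference 1.64 (adjusted p = 7.7e-05) and 1.15 (adjusted p = 0.17). Interferon response genes (10 genes, such as Ifit1 and Isg15) were also higher under AKG, summing to between 3150 and 4190 CPM against 1850 to 2330 CPM without glutamine. Of these 10, 6 were called higher with AKG against no glutamine (0 to 2 when 1 library was left out, 10 with the block). Without against with glutamine their median was -0.22 (0 called, 1 lower with the block). With AKG against glutamine, where C4b differed by 0.08 with the block, their median was 0.74 (0 called, 8 higher with the block). Their part in the C4b difference was not tested.

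Serping1 had the largest log2 difference of the 7 between tolerant cells without and with glutamine. Its values were 2.02, 1.66, 6.50 and 8.05 CPM with glutamine, 0.201, 0.359, 1.67 and 1.13 CPM without, and 1.11, 0.483, 2.33 and 2.32 CPM with AKG. Here replicates 3 and 4 were the higher ones, by 3.94, 4.99 and 2.92 times in the 3 groups. The log2 difference without against with glutamine was -2.44 (SE 0.75, adjusted p = 0.098, blocked 0.00018), with similar values within replicates 1 and 2 (-2.68, adjusted p = 0.0022) and within 3 and 4 (-2.35, adjusted p = 0.0019). AKG against no glutamine gave 0.90 (SE 0.74, adjusted p = 0.71; blocked 0.96, adjusted p = 0.042). Against glutamine AKG was lower, at -1.54 (SE 0.72, adjusted p = 0.70; blocked -1.49, adjusted p = 0.0044). That difference was -1.21 within replicates 1 and 2 (adjusted p = 0.055) and -1.61 within 3 and 4 (adjusted p = 0.0095).

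Stromal fibroblast markers were high and low in the same tolerant libraries as Serping1. Their summed level was 431, 470, 2250 and 2210 CPM with glutamine, 57.6, 52.3, 220 and 203 CPM without, and 161, 117, 412 and 424 CPM with AKG. Of the 10 stromal markers tested 7 fell without glutamine and 0 rose, with a median of -3.34 (10 fell with the replicate block), and the count dropped to 0 when replicate 2 without glutamine was left out. Across the 12 tolerant libraries Serping1 spanned 40-fold, whereas the ratio of Serping1 to the stromal sum, in thousandths, ranged from 2.89 to 7.58, a 2.62-fold span, in a description chosen after the data were seen. By library the ratio was 4.7, 3.54, 2.89 and 3.64 with glutamine, 3.48, 6.87, 7.58 and 5.57 without, and 6.88, 4.13, 5.66 and 5.48 with AKG. The values of replicates 1 and 2 without glutamine rest on 6 and 12 counts of Serping1. In the stimulation set the same ratio ran from 9.74 to 11.7. Whether stromal cells account for the Serping1 differences was not tested further. Macrophage markers had a median of 0.02 in the comparison without against with glutamine (10 genes, 0 called).

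**Figure D3:**
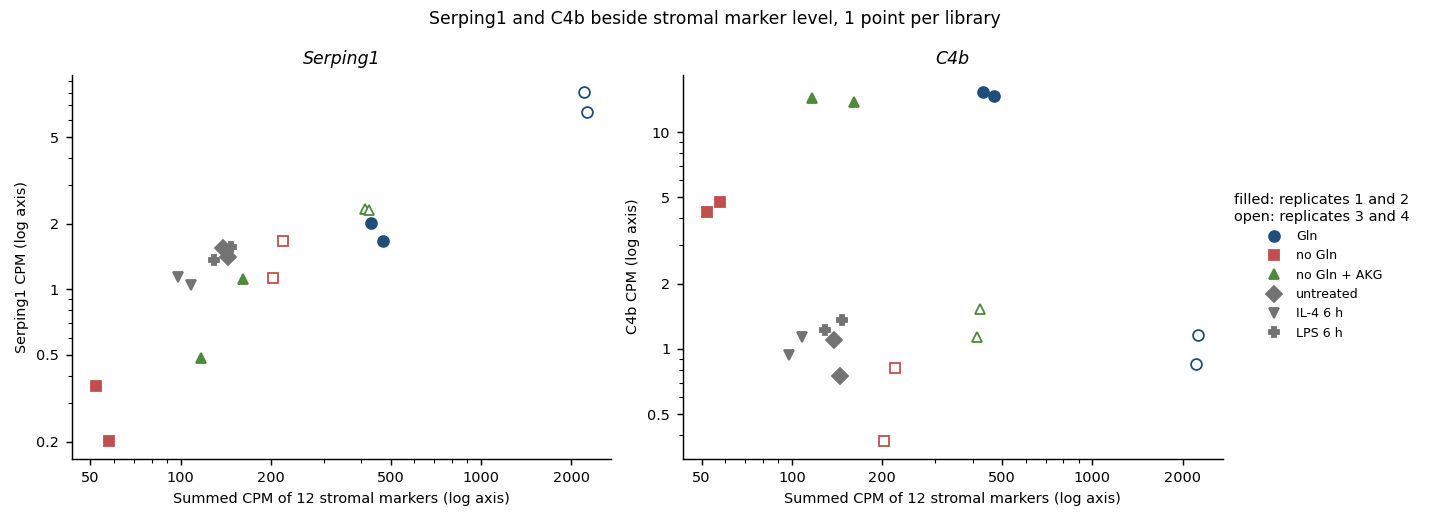
Serping1 (left) and C4b (right) in CPM (y axes, log) against the summed CPM of 12 stromal markers (x axes, log), 1 point per library, with symbols by group and open symbols for replicates 3 and 4. Serping1 rises with the stromal sum from 0.201 to 8.05 CPM across the tolerant libraries, and C4b does not follow it.

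**Figure D4:**
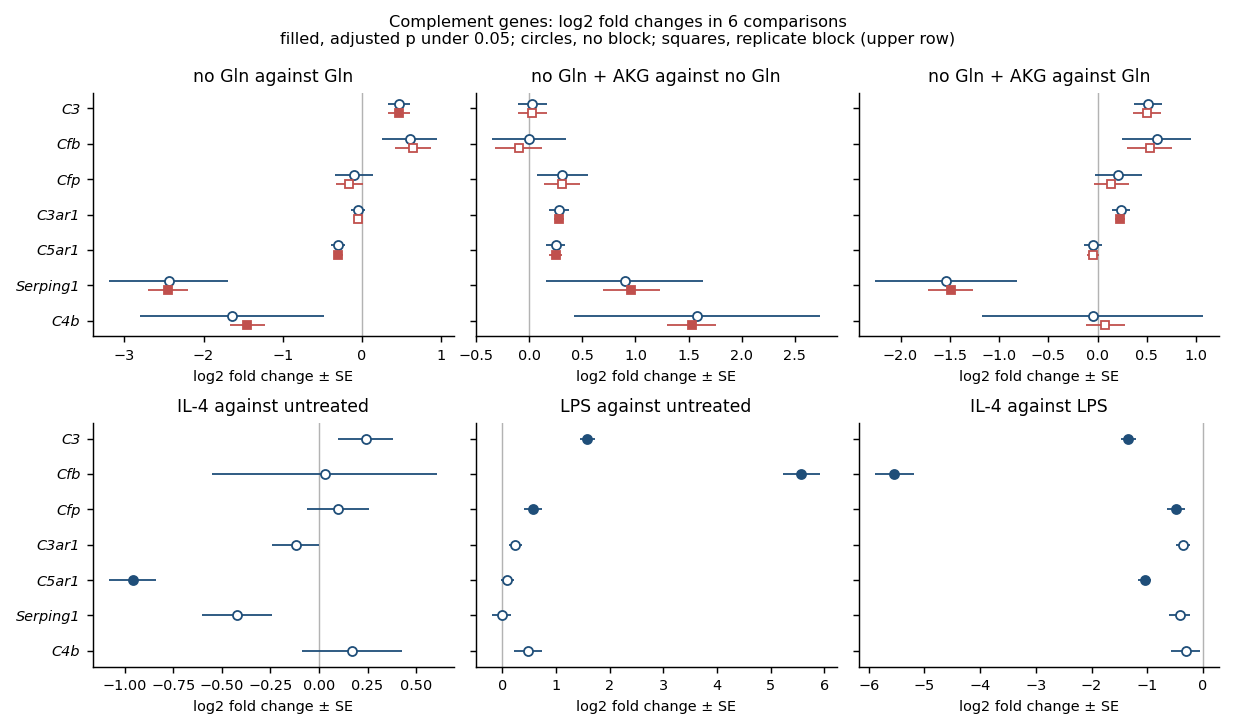
Log2 fold change ± SE (x axes) of the 7 genes (y axes) in 6 comparisons. Circles are fits without a block and squares, in the upper row, fits with the replicate block, filled where adjusted p is under 0.05: in the tolerant comparisons only squares are filled, and the C4b bars shrink from an SE of 1.16 to 0.22.

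The wider complement system was read from a list of 45 other genes, 44 of them in the tables, of which 22 were tested in the tolerant set and 21 in the stimulation set. Several members of the lytic pathway and liver-made factors, C6, C7, C8a, C8b and Vtn among them, had 0 counts in all libraries of at least 1 group. Under LPS 6 of 21 rose and 3 fell (list median -0.03), beside 22.8% and 29.4% of all genes (52.3% in either direction). The rises included the proteases of the C1 complex, C1ra from 5.62 to 43.6 CPM (2.95, SE 0.15, adjusted p = 7.1e-05) and C1s1 from 0.261 to 1.66 CPM (2.65, SE 0.25, adjusted p = 0.00046), with their relative C1rl (1.88, SE 0.17, adjusted p = 0.00041). Cd55, which dissociates convertases, rose by 1.78 (SE 0.40, adjusted p = 0.013), Itgam, a chain of complement receptor 3, by 0.50 (SE 0.11, adjusted p = 0.012) and Cr1l, a convertase regulator, by 0.42 (SE 0.10, adjusted p = 0.015). Serping1, the inhibitor of C1r and C1s, had -0.01 (95% interval -0.46 to 0.44, adjusted p = 0.98), and 0.09 with RLE size factors.

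C5ar2, the other C5a receptor, fell with both stimuli. It went from 21.2 to 2.89 CPM with LPS, a fall of 2.87 on the log2 scale (SE 0.14, adjusted p = 6.9e-05), and to 11.6 CPM with IL-4 (-0.87, SE 0.13, adjusted p = 0.0073). Cd93, a phagocytic receptor once described as a C1q receptor, fell with both, to 253 CPM with LPS (-0.96, adjusted p = 0.0023) and 115 CPM with IL-4 (-2.11, adjusted p = 0.00066) from 494 CPM. Cd59a, which blocks the membrane attack complex, fell by 0.94 with LPS (adjusted p = 0.0098) and by 0.81 with IL-4 (adjusted p = 0.036).

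IL-4 called 3 of 21 listed genes higher and 4 lower (median -0.13), beside 9.64% and 10.5% of all genes. Itgax, a chain of complement receptor 4, rose from 4.95 to 40.0 CPM (3.01, SE 0.17, adjusted p = 0.00044), and C1qbp by 0.59 (SE 0.12, adjusted p = 0.021). Susd4, a complement inhibitor, had 3 and 1 counts untreated, 133 and 174 with IL-4 and 0 in both LPS libraries. From summed counts the ratio of IL-4 to untreated was 77.8 (exact 95% interval 30.1 to 287). C1rl fell by 1.34 (SE 0.18, adjusted p = 0.0057). Against LPS, IL-4 left 5 of 21 higher and 7 lower (median -0.09), beside 29.7% and 23.4% of all genes. These were C1ra (-3.08), C1rl (-3.22), C1s1 (-2.45), Cd55 (-2.75), Itgam (-0.85), Cd93 (-1.14) and Cr1l (-0.34) on the lower side. C8g (0.84), C5ar2 (2.0), Itgax (2.92), C1qbp (0.82) and Susd4 were higher.

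In the tolerant set none of the 22 listed genes was called without the block by edgeR's quasi-likelihood test in any comparison. Over all genes that test called 4.78, 1.54 and 0%. At an unadjusted p under 0.05 there were 2, 3 and 1 listed genes, beside 18, 13.1 and 7.36% of all genes. DESeq2 called 2, 2 and 0 (10.1, 5.46 and 1.86% of genes), and limma-voom 0, 0 and 0 (3.73, 1.67 and 0%). With the replicate block 6 of the 22 fell without glutamine, where 13.1% of all genes fell. With AKG against no glutamine 6 rose and 1 fell, beside 8.5% and 7.07% of all genes. The 3 chains of C1q, the recognition protein of the classical pathway, were in both counts. C1qa averaged 1710 CPM with glutamine, 1120 CPM without and 1910 CPM with AKG, and gave -0.67 and 0.79 with the block (SE 0.12 and 0.12, adjusted p = 0.0034 and 0.0026). C1qb gave -0.62 and 0.72 (adjusted p = 0.0029 and 0.0026) and C1qc -0.54 and 0.59 (adjusted p = 0.0084 and 0.0078). These 3 differences had the same sign within replicates 1 and 2 and within 3 and 4, for C1qa -0.43 and -0.87 on withdrawal and 0.70 and 0.89 with AKG.

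C5ar2 also went down without glutamine and up with AKG (-0.27 and 0.56 with the block, adjusted p = 0.048 and 0.0031). Masp1, a lectin pathway protease, fell by 2.68 without glutamine (adjusted p = 0.0026 with the block, 0.089 without it). Its mean went from 1.22 (SD 0.803) to 0.190 CPM (SD 0.175), a level near the floor, and the groups overlapped. The stromal markers had a blocked median of -3.28 in that comparison, 10 of 10 lower, and their part in the Masp1 fall was not tested. With AKG the block also called Cd55 (1.25, adjusted p = 0.038), Itgam (0.29, adjusted p = 0.019) and C1qbp (-0.38, adjusted p = 0.033). Between AKG and glutamine the block called none of the 22, beside 7.08% of all genes. List medians were -0.18, 0.27 and 0.07, beside -0.012, 0.006 and -0.002 over all genes, and the 7 members had -0.10, 0.28 and 0.21.

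**Figure D5:**
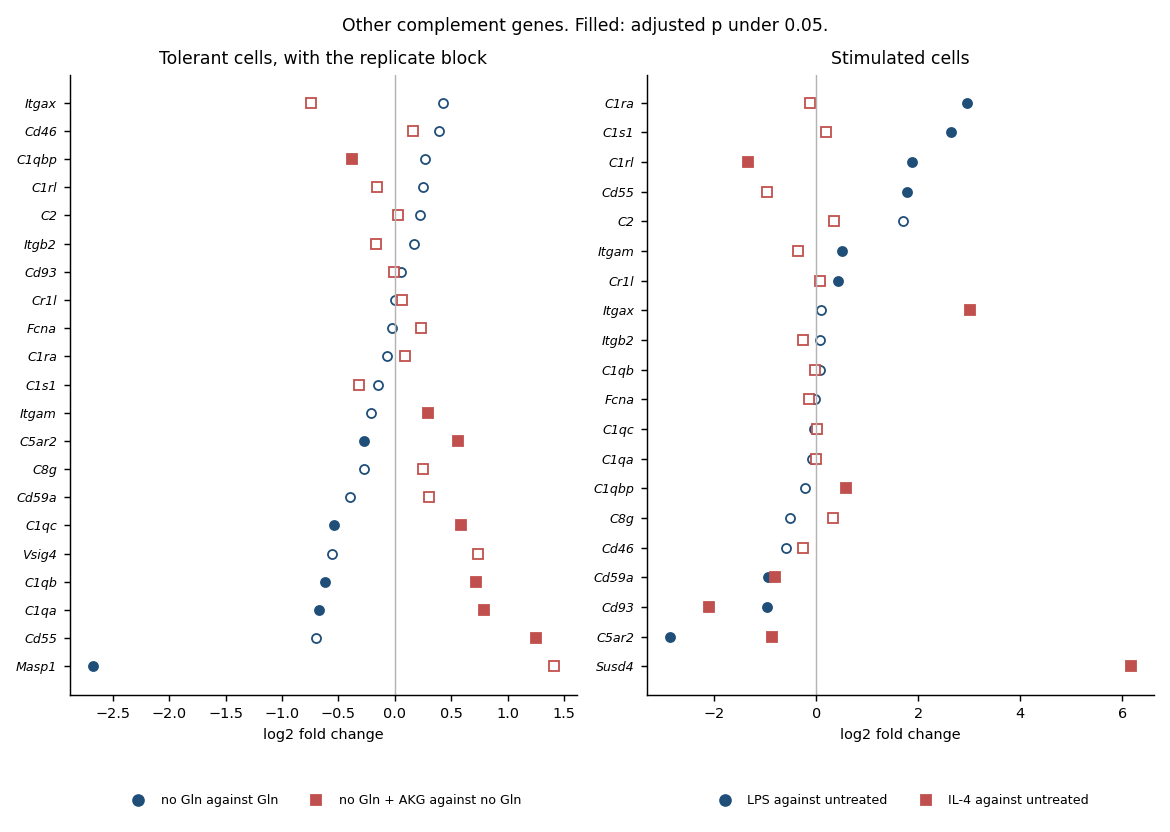
Log2 fold changes (x axes) of other complement genes (y axes), in tolerant cells with the replicate block (left) and in stimulated cells (right), filled where adjusted p is under 0.05. On the left C1qa, C1qb and C1qc are below 0 without glutamine and above 0 with AKG, and on the right C1ra and C1s1 lead the LPS rises. Susd4 is not plotted for LPS, where it had 0 counts.

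Genes with the most similar profile were sought for each member by Pearson correlation of log2 CPM over the 18 libraries, centred within each table, among 12128 genes tested in both. These are descriptions over libraries that share groups and replicate numbers. C3 was closest to Mllt6 (0.957), Prelid2 (0.953) and Slc31a2 (0.940). Cfb was closest to Saa3 (0.983), Orai2 (0.981) and Nfkb2 (0.979), and Cfp to Slc25a10 (0.956), Tmem176a (0.940) and Tmem176b (0.927). Serping1 ran with Col6a1 (0.982), Sparc (0.978) and Pxdn (0.978), genes of the extracellular matrix. C4b ran with Kmo (0.977), Ccl8 (0.976) and Selplg (0.975), C5ar1 with Fgd3 (0.975), Neurl2 (0.968) and Ncf1 (0.956), and C3ar1 with Lrch3 (0.910), Apbb1ip (0.901) and AI662270 (0.875). Among the members themselves C3 and Cfb were closest (0.89), followed by Cfp and C4b (0.67). The lowest correlation was between Serping1 and C4b (-0.42). Replicates 3 and 4 were above 1 and 2 for Serping1 and below them for C4b in every tolerant group. With the replicate block both genes fell without glutamine (-2.45 and -1.45) and were higher with AKG than without (0.96 and 1.53).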

How the data were processed

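RNA sequencing of 18 macrophage libraries in 6 groups gave 2 deposited tables of raw counts per gene, made by the authors with STAR and HTSeq on mm10, per the submitters' processing notes (no version, annotation or strand setting is given in the sources used here). Libraries were stranded TruSeq, per the labels' protocols. Each table (23052 symbols, 12492 and 12506 tested after filterByExpr) was fitted alone in edgeR 4.0.16 (R 4.3.3) with TMM, all its 3 groups and the quasi-likelihood test. A gene was called at a p, adjusted over all tested genes by Benjamini-Hochberg, under 0.05. SEs and 95% intervals are of the log2 fold change. The unblocked fit was checked on simulated counts, for withdrawal in the tolerant set and for IL-4 against untreated in the stimulation set. The simulated libraries held no differences between replicate numbers, and the blocked and interaction tests were not checked this way.

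The members and lists were chosen with earlier results of these data known. All 7 members are described, listed genes are named where called (1 is counted but not reported here), and the 3 most correlated genes are named per member. Chi-square per degree of freedom between replicates was 7.77 to 179, so none were copies. In the tolerant groups it was 7.77 to 10 between replicates 1 and 2, and 19.4 to 74.6 between 3 and 4. Small p-values within replicates 1 and 2 therefore rest on close pairs. Same-numbered tolerant libraries deviated together (correlations 0.501 to 0.823 in 12 pairs), which made the block usable, but so did replicates 1 and 2, or 3 and 4, with different numbers (0.465 to 0.836), against -0.838 to -0.567 across. Residual degrees of freedom were 9 and 3, and the biological coefficient of variation 0.271 (0.124 with the block) and 0.174. The settings varied were the size factors (RLE), the filter (none, or 1 CPM), the tool (DESeq2 1.42.0 or voom in limma 3.58.1), group pairs alone, blocks, replicate subsets and each library left out. After the data were seen, robust dispersion, a crossed IL-4 block and the Serping1 to stromal ratio were added. Neutrophil, dendritic, and mast and basophil markers summed to at most 18.9, 7.24 and 0.592 CPM in any library.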

Additional observations from a re-analysis of the deposited data

Results flagged for a closer look

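Of 21 interactions of a member's effect with replicate number (1 and 2 against 3 and 4), 2 passed, both for AKG against glutamine in tolerant cells. The C3 effect was lower by 0.72 log2 units in replicates 3 and 4 (SE 0.13, adjusted p = 0.035), with 0.87 in replicates 1 and 2 and 0.18 in 3 and 4. The Cfp effect was lower by 0.89 (SE 0.17, adjusted p = 0.036), with 0.60 and -0.26. As signed values these are -0.72 and -0.89. No library lay far from the rest of its group by Dixon's criterion in 21 groups of 4 tested, where chance alone flags about 1 in 20. Where replicates 1 and 2 stood apart from 3 and 4, as for C4b, each extreme value had a near partner. The criterion can hardly flag a library there, and that rate does not hold for such groups.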

How the results depend on the processing

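No member was called in the 3 tolerant comparisons with RLE size factors, either filter, limma-voom, the groups alone, robust dispersion or any single library left out (0 to 0). Members called without against with glutamine, with AKG against without, and with AKG against glutamine numbered 3, 1 and 1 with DESeq2, 4, 4 and 2 with the replicate block, 5, 4 and 3 in replicates 1 and 2 alone, 2, 0 and 1 in replicates 3 and 4 alone, and 4, 4 and 3 with that grouping as a factor. Shares of all genes called are not given here for the replicate subsets or that grouping, so their member counts cannot be set against all genes. Interactions called without against with glutamine went from 0 to 1 with RLE size factors. In the stimulation set 2 to 4 members were called for LPS, 1 to 1 for IL-4 and 3 to 3 for IL-4 against LPS as single libraries were left out. Same-numbered stimulation libraries did not pair (correlations -0.662 to 0.501). There the replicate block gave 1, 3 and 4 members for IL-4, LPS and IL-4 against LPS, and crossing the IL-4 numbers gave 2, 3 and 5. Of all 12506 genes tested, the block as numbered called 1874, 6033 and 6117 in these comparisons, and the crossed block 3988, 7992 and 8058. With the block as numbered, the Cfp call for IL-4 against LPS was lost and C3ar1 was gained.

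Signs turned only for differences that were not called over all libraries, and the cause was not tested. Without against with glutamine these were C3ar1 (0.01 without replicate 2 lacking glutamine) and Cfp (-0.24 to 0.07 leaving out 1 library, the latter without its replicate 4, and 0.23 in replicates 1 and 2, where edgeR's quasi-likelihood test called it at adjusted p = 0.036). For AKG against no glutamine they were Cfb (-0.19 with limma-voom, -0.1 with the replicate block or grouping, -0.72 in replicates 3 and 4, -0.34 to 0.2 leaving out 1 library) and C3 (-0.02 in replicates 3 and 4, -0.05, -0.03 and -0.02 leaving out 1 library). Below 0 were the Cfb values -0.09, -0.12 and -0.34. For AKG against glutamine they were C4b (0.14 with limma-voom, 0.08 with the block, 0.07 with the grouping, 0.44 in replicates 3 and 4, and -0.55 to 0.47 leaving out 1 library, with 0.42, 0.31 and 0.29 also above 0) and Cfp (-0.26 in replicates 3 and 4). For IL-4 they were Cfb (-0.1 with limma-voom, -0.18 without untreated replicate 2, -0.84 without IL-4 replicate 1, up to 0.62), Cfp (-0.06 to 0.36) and C4b (-0.08 to 0.55), whose low ends came without untreated replicate 2. For LPS it was Serping1 (0.09 with RLE size factors or DESeq2, 0.16 without untreated replicate 1, 0.09 without LPS replicate 2, -0.11 without LPS replicate 1). With 3 residual degrees of freedom in the stimulation set, small differences there are imprecise, and a lone sample is assumed to vary like the other groups.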
